A study of Mus musculus with 6 samples.

Results

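The Tob/Btg anti-proliferative genes Tob1, Tob2, Btg1 and Btg3, the CCR4-NOT subunit genes Cnot1, Cnot6, Cnot6l, Cnot7 and Cnot8, and Pabpc1, which encodes the cytoplasmic poly(A) binding protein, were followed in mouse cerebellum on a low-Mn or a normal-Mn diet. These 10 genes were taken by symbol from the 53715 mouse genes of the count table and were found in all 6 libraries. They were selected on gene family with the fold changes and p-values of this same diet contrast already known, so their values between the diets describe these libraries and are no independent support for a direction. The low-Mn group was 3 male wild-type C57BL/6 mice fed a diet with 0 ppm Mn, and the normal-Mn group 3 such mice fed 35 ppm Mn, in each case for 2 weeks. The mice were bought at 4 weeks of age and kept on the 35 ppm diet before, while the labels call them adult. RNA of 1 cerebellum per mouse was made into 1 library of polyadenylated RNA. The methods call the 3 mice per diet biological replicates and a legend calls them technical, and in the second case the p-values measure library spread alone.

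Tob and Btg proteins share an N-terminal domain that binds the Cnot7 and Cnot8 nucleases, and Tob1 and Tob2 also bind Pabpc1 on the poly(A) tail, which brings the deadenylase to the mRNA. CCR4-NOT then shortens the tail, the step that leads to decapping and decay. It holds Cnot1 as a scaffold and 1 nuclease from each of a pair of families, Cnot6 or Cnot6l and Cnot7 or Cnot8. The family slows cell proliferation, and in mice Btg2 is known as a brake on the precursors of cerebellar granule neurons.

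Sequence from the 250 bases before the RefSeq start of 3 Tob/Btg genes is shown, of Tob2 and of the related Tob1 and Btg1. Tob2 is the gene of the 10 with the smallest p between the diets. The sequences are from RefSeq (GRCm38.p6), read 5′ to 3′ on the strand of the gene, and capitals mark matches on either strand to 5 short motifs. These were the TATA box, searched as TATAAA, the CCAAT box, the GC box, searched as GGGCGG, the half-site of the cAMP response element, searched as TGACG, and the FoxO core, searched as TGTTTAC. No match overlapped another in them.
Tob1, chr11:94211204-94211453, plus strand: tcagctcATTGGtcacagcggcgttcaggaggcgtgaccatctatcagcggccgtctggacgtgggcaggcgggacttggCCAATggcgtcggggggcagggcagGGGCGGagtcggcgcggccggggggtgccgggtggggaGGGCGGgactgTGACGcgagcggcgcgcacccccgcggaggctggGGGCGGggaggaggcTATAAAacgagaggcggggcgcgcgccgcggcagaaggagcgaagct
Btg1, chr10:96616751-96617000, plus strand: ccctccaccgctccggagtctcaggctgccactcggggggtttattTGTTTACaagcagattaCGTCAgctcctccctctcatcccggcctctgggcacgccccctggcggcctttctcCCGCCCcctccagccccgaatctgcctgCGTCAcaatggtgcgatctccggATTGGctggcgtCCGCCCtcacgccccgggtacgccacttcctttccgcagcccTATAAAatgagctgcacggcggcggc
Tob2, chr15:81858523-81858576, minus strand: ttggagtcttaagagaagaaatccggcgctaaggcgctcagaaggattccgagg
The 250 bases of Tob1 and of Btg1 each held 7 matches. In both, a TATA box lay close to the start, at 47 bases before it in Tob1 (position -47) and 26 before it in Btg1 (position -26), and both held a CCAAT box, GC boxes and a cAMP half-site. Only Btg1 of these genes held the FoxO core, at position -204. For Tob2 just 54 bases are shown, those before the start of every coding transcript of the gene in GENCODE M21. They are the part of its window farthest from its RefSeq start, so they do not line up with the TATA boxes of Tob1 and Btg1. Unlike the other stretches, these bases do not precede the annotated gene: they lie before its coding transcripts but inside its annotated span. They held no match, and the full window of Tob2, from 250 bases before its start to 50 after, held GC boxes alone. Those lay at positions -44 and -33, outside the bases shown. Of the 32851 windows of this size in the table, 13.6% held the TATA box, 37.4% the CCAAT box, 35.7% the GC box, 20.8% the cAMP half-site and 3.65% the FoxO core. The 7 of the 10 genes with an entry, which are all but Cnot1, Cnot7 and Pabpc1, had 13 windows, some genes more than 1. Of these 13 windows, 2 held a TATA box, 5 a CCAAT box, 10 a GC box, 5 a cAMP half-site and 1 the FoxO core. Matches to such short words describe the letters only.

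Expected counts summed to between 14548300 and 17124300 in the low-Mn libraries and between 18446700 and 21277500 in the normal-Mn libraries, so depth moved with diet. Levels are given as CPM, the count of a gene relative to the total of its library, scaled with TMM factors that correct for library composition. Markers of granule neurons, with 5075 to 5139 summed CPM on the low-Mn diet and 4867 to 5240 on the normal-Mn diet, and of Purkinje neurons, with 9237 to 9587 against 8856 to 9381, were abundant in every library, in keeping with the tissue label. Markers of other cells were lower in every low-Mn library than in every normal-Mn library, with summed CPM of 6855 to 7138 against 7313 to 8130 for 8 oligodendrocyte genes, 3900 to 4033 against 4117 to 4242 for 8 genes of astrocytes and Bergmann glia, 302.5 to 350.1 against 371 to 420 for 8 genes of meninges and fibroblasts, 95.1 to 103 against 110.0 to 111 for 6 microglia genes, and 1364.5 to 1406 against 1426 to 1518 for 6 interneuron genes. Those of the choroid plexus overlapped, at 2223 to 2750 against 2561 to 3099, as did those of endothelium, at 163 to 177 against 164 to 171, and of red blood cells, at 330.0 to 762 against 389 to 556. No marker of any list was at 0 in all 6 libraries. Over all tested genes, 0 granule, Purkinje, interneuron, astrocyte, microglia, endothelial or red cell markers passed, and 1 oligodendrocyte, 2 choroid plexus and 2 meningeal genes were lower. The part of depth and of cell makeup in the values of the Tob/Btg and CCR4-NOT genes was not tested, and in whole tissue fewer cells of a type and less RNA per cell cannot be told apart.

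Tob2 was higher in every mouse on the low-Mn diet, and it was the 1 gene of the 10 that passed the test over all genes. Tob2 (ENSMUSG00000048546.8, chr15:81848272-81858796 of GRCm38, minus strand, protein-coding) encodes an anti-proliferative adaptor between poly(A) binding protein and the deadenylase. Its CPM was 85.4, 87.0 and 81.3 in low-Mn replicates 1 to 3, against 60.3, 66.3 and 54.6 in normal-Mn replicates 1 to 3. The lowest low-Mn mouse lay 15.1 CPM above the highest normal-Mn mouse, a wider gap than the spread within either diet. CPM averaged 84.6 ± 2.92 in low-Mn mice against 60.4 ± 5.85 in normal-Mn mice (SD, n = 3 each), and the fitted difference was 39.9% more in low-Mn mice. The log2 fold change of low-Mn relative to normal-Mn mice was 0.48 with a standard error of 0.0640 (edgeR quasi-likelihood test, Benjamini-Hochberg adjusted p = 9.2e-04), which ranked 5th by p of the 16123 genes tested. Without any 1 of the 6 libraries the fold change was from 0.42 to 0.56 and the adjusted p from edgeR at most 0.00708. A mean of 1291 counts per library stood behind these values. The opposite strand gene Gm49476 overlaps 4.34% of the exons of Tob2, and 2.99% of its 50-base words occur in other genes.

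Among the 10 genes, 1 passed in either direction, beside 0.595% of all tested genes. This 1 gene was higher, beside 0.416% of all tested genes, and 0 were lower, beside 0.180% (edgeR, adjusted p under 0.05). DESeq2 and limma-voom also called 1 higher and 0 lower. Of the 16123 tested genes DESeq2 called 101 higher and 52 lower, and limma-voom 46 higher and 17 lower. At an unadjusted p under 0.05 in edgeR, 5 were higher and 1, Btg3, was lower, and 12.1% of all tested genes were past that limit in either direction. Of the 10 genes, 8 had a fold change above 0, beside 49.2% of all tested genes, with a median of 0.12, while the median over all tested genes was -0.0025. By CPM, every low-Mn mouse lay above every normal-Mn mouse in 5 of the 10 genes, which is the case in 8.79% of all tested genes, and 0 of the 10 had every low-Mn mouse below, beside 8.32% of all tested genes. The diets thus did not overlap in CPM in 5 of the 10 genes, beside 17.1% of all tested genes. Since the genes were chosen with this contrast known, these counts are a description only.

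**Figure D1:**
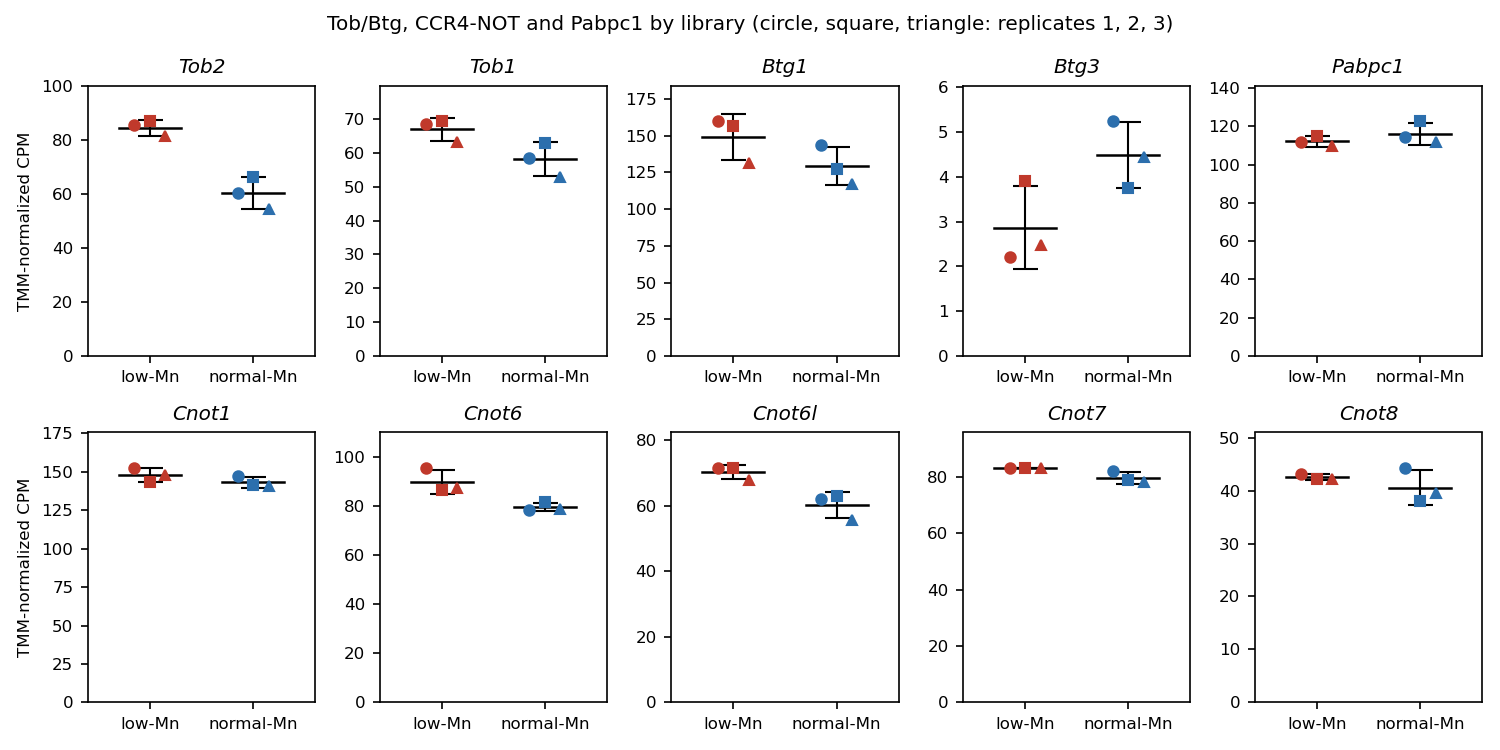
TMM-normalized CPM of the 10 genes in each low-Mn (red, left) and normal-Mn (blue, right) library, with the mean and SD of 3 mice as bars and the vertical axes starting at 0. The 3 low-Mn mice sit above the 3 normal-Mn mice for Tob2, Tob1, Cnot6, Cnot6l and Cnot7, by 15.1 CPM for Tob2 and by 0.0764 CPM for Tob1, while the diets overlap for the other 5 genes.

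Tob1, the closest relative of Tob2 and likewise an adaptor to the deadenylase, had a smaller difference that did not pass. Its CPM was 68.6, 69.4 and 63.2 in low-Mn replicates 1 to 3, against 58.5, 63.1 and 52.9 in normal-Mn replicates 1 to 3. The diets did not overlap, but the gap between them was only 0.0764 CPM. The log2 fold change was 0.20 (standard error 0.0657, edgeR adjusted p = 0.190), and it was from 0.14 to 0.26 when any 1 library was left out. Tob1 (ENSMUSG00000037573.5, chr11:94211454-94215495, plus strand) shared no 50-base word with another gene.

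In CPM both Tob genes had their lowest value of each diet in replicate 3, as did Btg1, Cnot6l, Cnot7, Pabpc1 and also Btg2. The share of all tested genes with this order was not counted, so it shows no link between the libraries numbered 3. Over 16123 genes the deviations of those libraries from their diet means correlated at 0.0361. The ratio of one Tob gene to the other was steadier than either level. The ratio of Tob2 to Tob1, each as TPM (counts per length, scaled to the library total), was 0.427, 0.430 and 0.442 in low-Mn replicates 1 to 3 and 0.354, 0.361 and 0.354 in normal-Mn replicates 1 to 3. It averaged 0.433 ± 0.00788 in low-Mn mice against 0.356 ± 0.00387 in normal-Mn mice (SD, n = 3 each), and the diets did not overlap. Scaling between libraries has no bearing on this ratio, whose size, though not its change between the diets, depends on the lengths used. It was computed after the fold changes of both genes had been seen and carries no test.

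Btg1, an anti-proliferative gene that binds the same nucleases, varied more between mice than the Tob genes. Its CPM was 159.9, 157 and 131 in low-Mn replicates 1 to 3, against 143, 127 and 117 in normal-Mn replicates 1 to 3, so that low-Mn replicate 3 fell within the range of the normal-Mn mice. The log2 fold change was 0.21 (standard error 0.0705, edgeR adjusted p = 0.218). With no filter on low counts Btg1 passed (adjusted p = 0.0140 from edgeR), in a fit that called 424 genes against 96 in the reported one. It also passed with the replicate number as a block (edgeR adjusted p = 0.0413), though whether these numbers pair the diets was not settled. In DESeq2 it did not pass (adjusted p = 0.540). Without any 1 library its fold change was from 0.14 to 0.29 and it did not pass (edgeR adjusted p from 0.0630 to 0.529). Btg1 (ENSMUSG00000036478.8, chr10:96617006-96622809, plus strand) shared 2.49% of its 50-base words with Gm14519.

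Btg3, another anti-proliferative gene of the family, had the lowest counts of the 10 genes, a mean of 68.1 per library. Its CPM was 2.21, 3.92 and 2.47 in low-Mn replicates 1 to 3, against 5.24, 3.76 and 4.44 in normal-Mn replicates 1 to 3. Low-Mn replicate 2 lay above normal-Mn replicate 2, so the diets overlapped. The log2 fold change was -0.66 (standard error 0.245, edgeR adjusted p = 0.269). These values are uncertain, because Btg3 (ENSMUSG00000022863.14, chr16:78332637-78377192, minus strand) shared 30.9% of its 50-base words with other genes, 17.8% with Gm7334 alone, and overlapped Cxadr on the opposite strand over 17.3% of its exons. All 6 of its expected counts were fractions, as arise when reads are divided among genes. So were 83.3% of those of Cnot1 and 33.3% of those of Cnot7 and of Pabpc1. Gm7334 itself had a log2 fold change of 1.18 (standard error 0.469, edgeR adjusted p = 0.303), opposite in sign to that of Btg3. Summed with Gm7334, the CPM was 3.20, 6.80 and 3.39 in low-Mn replicates 1 to 3 and 5.71, 4.67 and 5.15 in normal-Mn replicates 1 to 3, and the highest and the lowest of the 6 values were then both low-Mn.

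Btg2, the remaining Tob/Btg gene with counts, was not among the 10 and did not pass. Its CPM was 17.6, 18.5 and 12.6 in low-Mn replicates 1 to 3, against 12.3, 14.7 and 12.1 in normal-Mn replicates 1 to 3, with low-Mn replicate 3 inside the normal-Mn range as for Btg1. The log2 fold change was 0.31 (standard error 0.133, edgeR adjusted p = 0.337). Btg4, which is known from mouse oocytes, was listed at 0 counts in all 6 libraries.

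The 2 catalytic subunits of the Ccr4 type, Cnot6 and Cnot6l, did not overlap between the diets, although neither passed. The CPM of Cnot6 was 95.5, 86.45 and 87.4 in low-Mn replicates 1 to 3, against 78.4, 81.6 and 78.9 in normal-Mn replicates 1 to 3, a log2 fold change of 0.17 (standard error 0.0540, edgeR adjusted p = 0.173). That of Cnot6l was 71.6, 71.5 and 67.7 in low-Mn replicates 1 to 3, against 62.2, 62.8 and 55.6 in normal-Mn replicates 1 to 3. Its log2 fold change was 0.22 (standard error 0.0597), the next in p after Tob2 among the 10 genes (edgeR adjusted p = 0.102). With no filter on low counts, where 424 genes were called against 96 in the reported fit, Cnot6l passed (adjusted p = 0.0446 from edgeR). This was the 1 of 14 alternatives in which it did. Cnot6 (ENSMUSG00000020362.13, chr11:49671503-49712723) and Cnot6l (ENSMUSG00000034724.17, chr5:96070333-96164171), both on the minus strand, shared 0.812% and 0% of their 50-base words with any other gene, so the pair had no 50-base word in common.

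The catalytic subunits of the Caf1 type, Cnot7 and Cnot8, which the Tob/Btg proteins bind directly, had fold changes within 1 or 2 standard errors of 0. Cnot7 (chr8:40492540-40515847, minus strand) had a CPM of 83.3, 83.4 and 83.2 in low-Mn replicates 1 to 3 and 82.3, 79.0 and 78.1 in normal-Mn replicates 1 to 3. The low-Mn mice were almost equal and lay above the normal-Mn mice, by 0.925 CPM, but the log2 fold change was only 0.06 (standard error 0.0508, edgeR adjusted p = 0.692). In TPM the diets overlapped for Cnot7. It had 49.25, 49.60 and 49.20 TPM in low-Mn replicates 1 to 3 and 49.33, 44.08 and 46.65 in normal-Mn replicates 1 to 3. Cnot8 (chr11:58104153-58118594, plus strand) had a CPM of 43.1, 42.1 and 42.2 in low-Mn replicates 1 to 3 and 44.3, 37.9 and 39.5 in normal-Mn replicates 1 to 3. The diets overlapped, with normal-Mn replicate 1 highest of all, and the log2 fold change was 0.07 (standard error 0.0698, edgeR adjusted p = 0.767). It was 0.14 without normal-Mn replicate 1 and 0.018 without normal-Mn replicate 2.

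Cnot1, the scaffold that holds the complex together, overlapped between the diets. Its CPM was 153, 143 and 148 in low-Mn replicates 1 to 3 and 147, 141 and 141 in normal-Mn replicates 1 to 3, a log2 fold change of 0.05 (standard error 0.0466, edgeR adjusted p = 0.744) that was 0.025 without low-Mn replicate 1. Cnot1 lies at chr8:95719451-95807464 on the minus strand and shared 4.77% of its 50-base words, mostly with Gm6158. Pabpc1 also overlapped, at 112, 115 and 109.6 CPM in low-Mn replicates 1 to 3 and 114, 123 and 112 in normal-Mn replicates 1 to 3. Its log2 fold change was -0.05 (standard error 0.0505, edgeR adjusted p = 0.739), and it was -0.013 without normal-Mn replicate 2 and -0.081 without normal-Mn replicate 3. Pabpc1 (chr15:36595661-36609668, minus strand) shared 9.94% of its 50-base words with other genes, and Cnot8 7.82% with Gm18860.

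**Figure D2:**
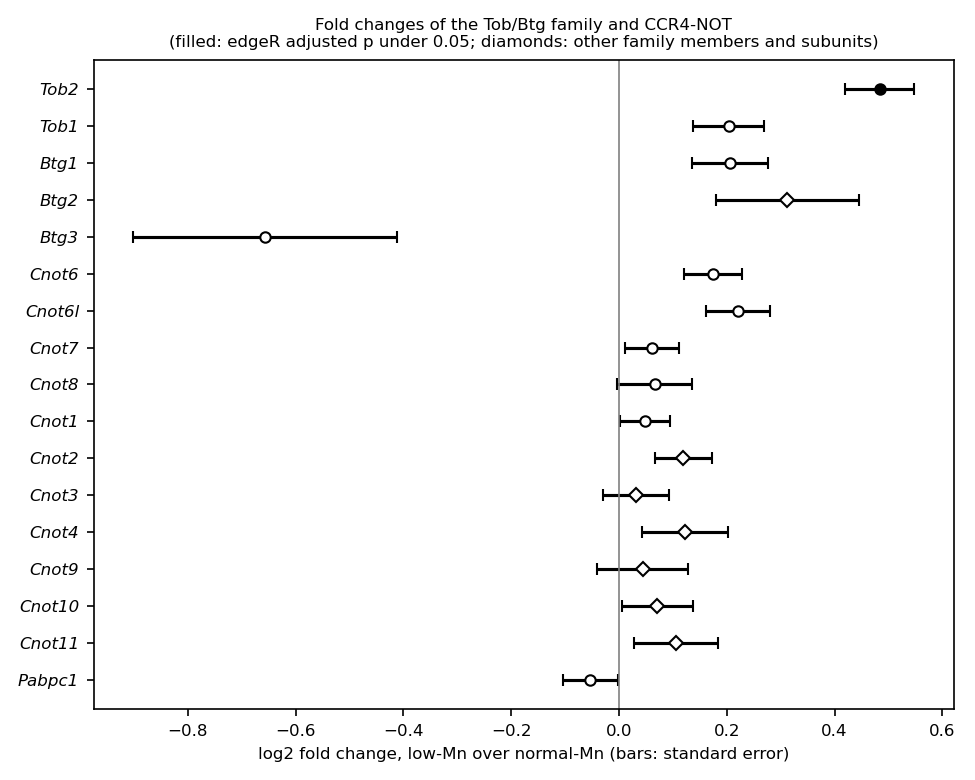
Log2 fold change of low-Mn relative to normal-Mn mice for the 10 genes (circles) and of Btg2 and the other CCR4-NOT subunits (diamonds), with the standard error as bars and filled symbols where the edgeR adjusted p is under 0.05. Tob2 at 0.48 is the filled symbol, all CCR4-NOT subunits lie between 0.03 and 0.22, and Btg3 lies at -0.66 with the widest bar.

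The 6 other CCR4-NOT subunit genes had log2 fold changes from 0.03 to 0.12, and 0 of 6 passed in edgeR, in DESeq2 or in limma-voom. At an unadjusted p under 0.05, 1 of them was higher (16.7%, beside 12.1% of all tested genes in either direction). This was Cnot2, a subunit of the module that also holds Cnot3. Cnot2 had a CPM of 79.3, 76.7 and 80.2 in low-Mn replicates 1 to 3 and 75.0, 70.5 and 72.0 in normal-Mn replicates 1 to 3, a log2 fold change of 0.12 (standard error 0.0529, edgeR adjusted p = 0.363). Its diets did not overlap. The log2 fold change was 0.12 for Cnot4, a ubiquitin ligase, 0.11 for Cnot11, 0.07 for Cnot10, 0.04 for Cnot9 and 0.03 for Cnot3, with edgeR adjusted p from 0.580 to 0.893. Cnot3 shared 13.5% of its 50-base words with other genes and is uncertain. Together with the 5 subunits among the 10 genes, all 11 had a fitted value above 0, as did 49.2% of all tested genes, and none passed over all genes.

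In the order of level, Btg3 was lowest and Cnot6l the next above it, whichever length was used. Levels are TPM over the union of annotated exons, which includes retained introns, and in brackets over the longest coding transcript. On the low-Mn diet Tob1 had 101 TPM [76.5], Btg1 97.6 [78.0], Pabpc1 59.1 [104], Cnot8 55.6 [52.9], Cnot7 49.4 [72.9], Cnot6 46.9 [40.9], Tob2 43.8 [53.2], Cnot1 29.7 [46.1], Cnot6l 23.5 [21.4] and Btg3 2.46 [2.48]. On the normal-Mn diet Tob1 had 86.4 TPM [65.5], Btg1 83.5 [66.8], Pabpc1 60.5 [106], Cnot8 52.5 [49.97], Cnot7 46.7 [69.1], Cnot6 41.0 [35.8], Tob2 30.8 [37.5], Cnot1 28.4 [44.0], Cnot6l 19.9 [18.1] and Btg3 3.82 [3.85]. The choice of length thus changed the order. Over the longest coding transcript Pabpc1 came first, Btg1 lay above Tob1, Cnot7 above Cnot8, and both Tob2 and Cnot1 above Cnot6. On the normal-Mn diet Cnot7 then lay above Btg1 and Tob1, and Cnot1 above Tob2, while on the low-Mn diet Tob2 lay above Cnot8. Over exons and across all 6 libraries, Btg1 lay clear of Pabpc1, Cnot1 of Cnot6l and Cnot6l of Btg3, whereas Tob1 and Btg1, Pabpc1 and Cnot8, Cnot8 and Cnot7, Cnot7 and Cnot6, Cnot6 and Tob2, and Tob2 and Cnot1 overlapped as neighbors. Among the normal-Mn libraries alone, Tob2 and Cnot1 overlapped over exons, and in every low-Mn library Tob2 was the higher of them by that length.

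Within the nuclease pairs the ratios overlapped between the diets. Cnot6 over Cnot6l in TPM was 2.08, 1.89 and 2.01 in low-Mn replicates 1 to 3 and 1.97, 2.03 and 2.21 in normal-Mn replicates 1 to 3. For Cnot7 over Cnot8 it was 0.875, 0.896 and 0.892 in low-Mn replicates 1 to 3 and 0.841, 0.943 and 0.897 in normal-Mn replicates 1 to 3.

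**Figure D3:**
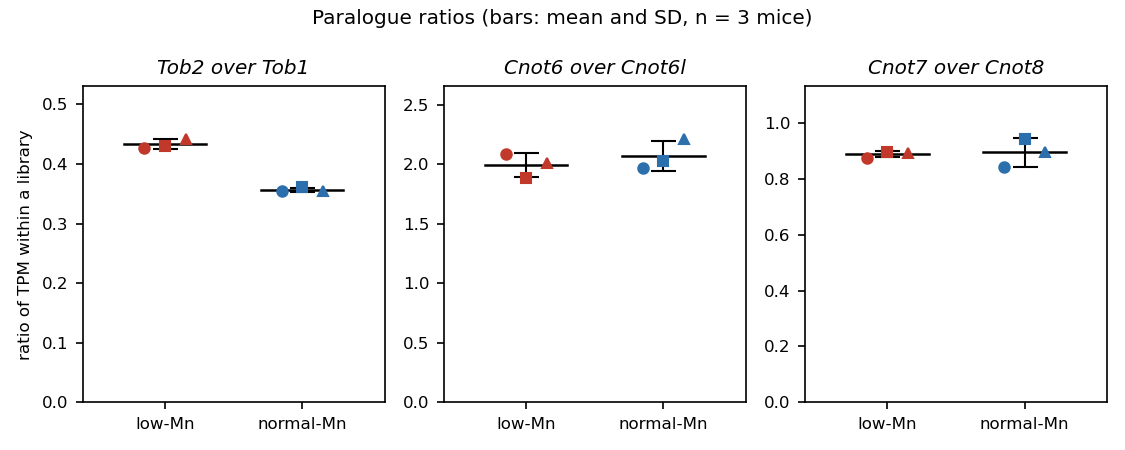
Ratio of TPM within each low-Mn (red, left) and normal-Mn (blue, right) library for 3 pairs of related genes, with mean and SD of 3 mice as bars and axes starting at 0. Tob2 over Tob1 runs from 0.427 to 0.442 on the low-Mn diet and from 0.354 to 0.361 on the normal-Mn diet, while both nuclease pairs overlap.

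The rest of the deadenylation and decay pathway was covered by 98 further genes, of which 89 had enough counts to be tested. Of these, 1 was higher, beside 0.416% of all tested genes, and 1 lower, beside 0.180% (edgeR, adjusted p under 0.05). The median log2 fold change of the 89 genes was 0.05, beside -0.0025 over all tested genes. Zfp36l2, which brings CCR4-NOT to mRNAs with AU-rich elements, was lower on the low-Mn diet, with a CPM of 23.7, 25.5 and 23.9 in low-Mn replicates 1 to 3, against 32.2, 34.0 and 34.3 in normal-Mn replicates 1 to 3. Its log2 fold change was -0.46 (standard error 0.0759, edgeR adjusted p = 0.00571), and it passed without any 1 library. Ago3, an Argonaute protein that acts with miRNAs, was higher, with a CPM of 89.7, 92.2 and 96.1 in low-Mn replicates 1 to 3, against 78.7, 69.7 and 82.8 in normal-Mn replicates 1 to 3. Its log2 fold change was 0.27 (standard error 0.0607, edgeR adjusted p = 0.0479). Ago3 no longer passed when any 1 of the 3 low-Mn libraries, or replicate 1 or 2 of the normal-Mn libraries, was left out (edgeR adjusted p from 0.0857 to 0.210), with upper quartile scaling (0.0584) and with limma-voom (0.0590). Both genes are among the 25 recruiters of CCR4-NOT, of which 23 were tested and 21 did not pass. At an unadjusted p under 0.05 in edgeR, 4 of these 23 were higher and 2 lower (26.1%, beside 12.1% of all tested genes).

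In the other groups of this pathway 0 genes passed in edgeR, DESeq2 or limma-voom. Of 8 tested deadenylases outside CCR4-NOT, 0 were past an unadjusted p of 0.05, beside 12.1% of all tested genes. The smallest p was for Pde12, a mitochondrial deadenylase (log2 fold change 0.16, edgeR adjusted p = 0.463), and Pan3, the partner of the Pan2 nuclease (0.10, adjusted p = 0.493). The value of Pan3 was 0.057 without low-Mn replicate 1 and 0.15 without low-Mn replicate 3. Of 6 tested poly(A) binding genes and their regulators, 1 was past that limit (16.7%), the nuclear protein gene Pabpn1. Its CPM was 168, 170.2 and 158 in low-Mn replicates 1 to 3 and 155, 143 and 152 in normal-Mn replicates 1 to 3 (log2 fold change 0.14, edgeR adjusted p = 0.234). Pabpn1 overlaps other genes over 21.45% of its exons and is uncertain. The next in that group was Paip2b, an inhibitor of poly(A) binding protein, at -0.10 (edgeR adjusted p = 0.456).

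Of 18 genes of decapping and decay from the 5′ end, 2 were past an unadjusted p of 0.05 (11.1%, beside 12.1% of all tested genes). They were Xrn1, the exonuclease of decapped mRNAs (log2 fold change 0.14, edgeR adjusted p = 0.357), and Lsm6, a subunit of the Lsm ring (-0.13, adjusted p = 0.383). Of 14 tested exosome and Ski complex genes, 1 was past that limit (7.14%), the nuclease gene Dis3. Its CPM was 24.1, 23.2 and 23.3 in low-Mn replicates 1 to 3 and 20.7, 18.9 and 20.3 in normal-Mn replicates 1 to 3 (log2 fold change 0.24, edgeR adjusted p = 0.259). Skiv2l, the Ski helicase, followed at 0.10 (edgeR adjusted p = 0.450), or 0.066 without low-Mn replicate 2. Among 13 partner and cell cycle genes linked to the Tob/Btg family, 1 was higher and 3 lower at that limit (30.8%, beside 12.1% of all tested genes). The smallest p there was that of Cdkn1a, the p21 inhibitor of cyclin-dependent kinases, at 23.3, 24.7 and 23.1 CPM in low-Mn replicates 1 to 3 and 17.9, 20.04 and 19.2 in normal-Mn replicates 1 to 3 (log2 fold change 0.32, edgeR adjusted p = 0.117). Ccnd2, a D-type cyclin, came next at -0.35 (edgeR adjusted p = 0.250), or -0.22 without low-Mn replicate 2. Cdkn1a did not overlap between the diets, and Ccnd2 did. Opposite strand genes overlap 7.68% of the exons of Cdkn1a and 7.87% of those of Ccnd2.

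The pattern of Tob2 over the 6 libraries was most like that of Hexim1, an inhibitor of the transcription elongation factor P-TEFb, among 11685 genes with at least 100 counts on average (Pearson r = 0.998 of log2 CPM, n = 6 libraries). Tmem41b, an endoplasmic reticulum membrane protein gene, followed (r = 0.995), and then Nxt1, a factor of mRNA export (r = 0.991). None of the 3 passed, with log2 fold changes of 0.22, 0.09 and 0.38 and edgeR adjusted p of 0.0754, 0.574 and 0.256. These correlations are the highest of many, share the difference between the diets and the depth of the libraries, and are given as a description.

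**Figure D4:**
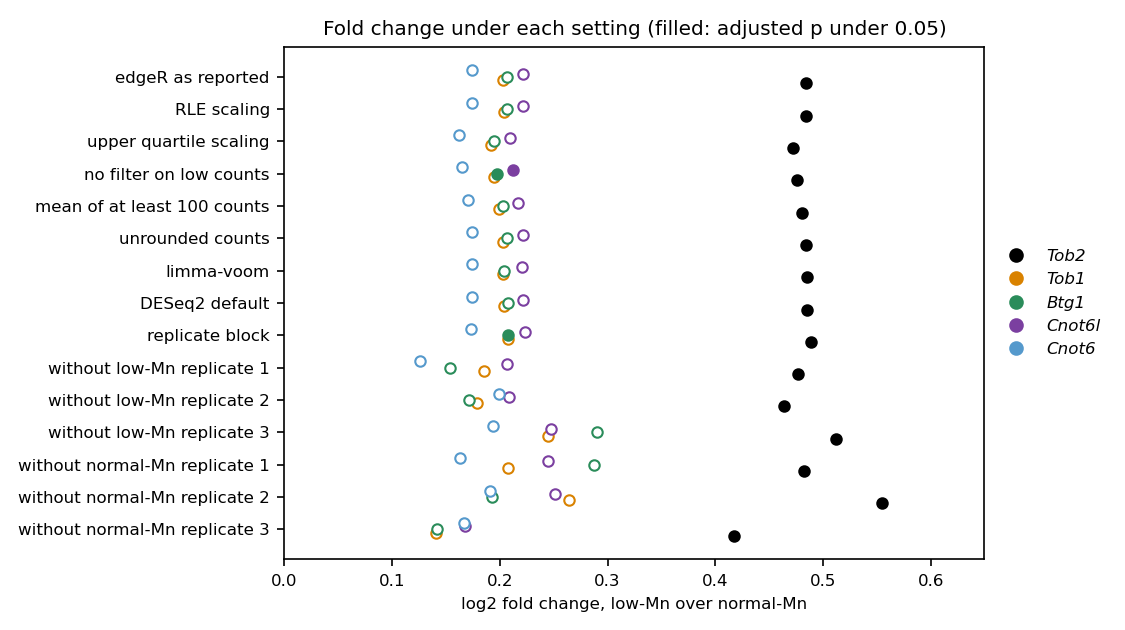
Log2 fold change of low-Mn relative to normal-Mn mice for 5 of the genes under the reported edgeR fit and each alternative, 1 alternative per line, with filled symbols where the adjusted p is under 0.05. Tob2 stays between 0.42 and 0.56 and is filled on every line, while Btg1 is filled with no filter and with the replicate number as a block, Cnot6l with no filter, and Tob1 and Cnot6 on none.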

How the data were processed

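Cerebellar RNA of 3 low-Mn and 3 normal-Mn mice was analysed, grouped by the sample labels. The authors mapped paired reads with STAR to mm10, while FastQC, RSEM and DESeq2 are listed in the submitters' processing notes. Tool versions and annotation release were not given in the sources used here. For each gene the authors deposited the expected count, an RSEM estimate with no normalization. Low-Mn columns are named by a number alone, taken as the replicate number, since the normal-Mn columns carry their dose. The 92 spike-in entries, at 0 in every library, were left out.

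Expected counts were rounded and kept by filterByExpr (minimum count 10, minimum total 15), which left 16123 genes, all 10 of the Tob/Btg and CCR4-NOT genes among them. Libraries were scaled by TMM and tested with glmQLFit and glmQLFTest of edgeR 4.0.16 in R 4.3.3, with Benjamini-Hochberg adjustment over all tested genes and a threshold of 0.05. The test was tried on simulated counts. Positions, exon overlaps, lengths and 50-base words shared with other genes (either strand) are from GENCODE M21. Gene ids are printed as in the count table and were matched without their version where the versions differed. Btg3, Cnot6l and Cdkn1a have a later version in GENCODE M21, so the gene models counted can differ from those described. The labels name a directional library kit, and whether counting used strand was not given in the sources used here. Alternatives were RLE and upper quartile scaling, no filter, a mean of at least 100 counts, unrounded counts, limma-voom (limma 3.58.1), DESeq2 1.42.0, the replicate number as a block and each library left out. The second length for TPM, and Btg3 summed with Gm7334, were chosen after seeing the data. The genes and lists were chosen with earlier results of these data known. Named are the 10 genes, every listed pathway gene that passed, the 2 smallest p of each list, and the 3 genes most like Tob2. The other CCR4-NOT subunits, Btg4, and the genes that share sequence were named besides.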

Additional observations from a re-analysis of the deposited data

How the results depend on the processing

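Tob2 and Zfp36l2 kept their direction and their call in all 14 alternatives, and none of the 10 genes reversed in any. Of the 10 genes, 3 passed with no filter on low counts (Tob2, Btg1 and Cnot6l) and 1 when any library was left out. Of the other pathway genes, 1 passed with upper quartile scaling and 1 with limma-voom, 5 with no filter and from 1 to 2 with a library left out. DESeq2 added Tnrc6a, a partner of Argonaute, and no filter added it with Cpeb4 and Zfp36l1, all named after their values were seen. Opposite strand Gm26669 overlaps 55.9% of the exons of Zfp36l1. Over all genes the count of 96 became 424 with no filter, 63 with limma-voom and 153 with DESeq2, and from 37 to 93 with a library left out. Leaving out low-Mn replicate 1 gave 47 genes, leaving out replicate 2 of the same diet 37, and leaving out normal-Mn replicate 2 gave 45. With upper quartile scaling 53 genes were higher and 37 lower, against 67 and 29. Btg3 could not be fitted under the stricter filter, because its mean count was too low.

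Whether replicate numbers pair the diets was not settled. Deviations of same-numbered libraries correlated at 0.0297, -0.0238 and 0.0361 over 16123 genes, and those of differently numbered libraries at from -0.0491 to 0.0193. With the replicate number as a block, 128 genes passed, 2 of the 10 genes did (Tob2 and Btg1, adjusted p = 0.0413 for Btg1 from edgeR), and 3 of the other pathway genes did. That Tob1, Cnot6 and Cnot6l did not pass does not show that they were equal between the diets.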
